A study of Mus musculus with 9 samples.

Results

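This report covers 9 mouse genes that are read as landmarks of the epithelial-mesenchymal transition (EMT): the classical cadherins Cdh1, Cdh2 and Cdh3, the adhesion protein gene Epcam, and the transcription factor genes Zeb1, Zeb2, Snai1, Snai2 and Twist1. They are 9 of the 35896 genes to which the quantified transcripts were assigned. The genes were chosen by name, with it already known that Zeb1 was raised by CK666 in these libraries, so the difference between CK666 and control cells chose the set and is described here with no p-value. The libraries of that comparison also enter the other comparisons, so Zeb1 is given no p-value in any of them. The study asks what Arp2/3, a complex that starts branches on actin filaments, does as mouse embryonic stem cells differentiate. RNA came from E14 cells, a feeder-independent mouse embryonic stem cell line, grown on gelatin in serum medium. One group was kept in LIF2i, that is, leukaemia inhibitory factor with the MEK inhibitor PD0325901 and the GSK3β inhibitor CHIR99021, which hold the cells in self-renewal. A control group was kept for 72 h without LIF2i, and a CK666 group was kept for the same 72 h without LIF2i in 80 µM of CK666, a small molecule that inhibits Arp2/3. CK666 was made up in DMSO, and the labels do not say whether the control cells received DMSO, so CK666 and its solvent cannot be told apart. Each group had 3 replicates, which the series describes as paired by number. All cells are of 1 line.

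Classical cadherins hold neighbouring cells together by binding the same cadherin across the gap, and their tails are tied to actin through catenins. E-cadherin (Cdh1) is the main cadherin of epithelia and of mouse embryonic stem cells, and in EMT it is exchanged for N-cadherin (Cdh2). ZEB, SNAIL and TWIST proteins are the factors best known for driving that exchange, in large part by binding short DNA motifs called E-boxes at epithelial genes and repressing them.

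The libraries held 16894327 to 22550952 estimated counts, so that 3 counts, the upper limit that a count of 0 allows, correspond to 0.133 to 0.178 CPM (counts scaled to library size). All 9 genes passed the filter on low counts and were among the 14648 genes tested. The summed level of 8 embryonic stem cell markers was 3540 to 4279 TPM (the deposited levels per transcript length) in LIF2i, 2390 to 2875 after withdrawal and 2277 to 2945 with CK666. Its largest part was Pou5f1, at means of 1687 TPM in LIF2i and 1379 TPM after withdrawal. On withdrawal 5 of the 8 were lowered and 2 raised at an edgeR adjusted p under 0.05, beside 19.7% and 21.1% of all tested genes. Pou5f1 did not pass. Esrrb, lowered, went from 422 to 13.7 TPM, and Utf1, raised, from 73.3 to 491 TPM. Replicate 1 stood apart: its 3 libraries had 15690 to 17605 genes detected, against 18166 to 18749 in replicates 2 and 3. Within every group, replicate 1 had the highest CPM of Zeb1, Cdh1 and Cdh2 and the lowest CPM of Epcam. Replicate 1 has a single library per group, so no comparison can be tested within it. Values without replicate 1 are given beside the calls of the 9 genes that they change. In RNA from whole cultures, fewer cells of a type and less RNA per cell cannot be told apart.

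Ranked by TPM, on which levels of different genes can be compared, Cdh1 was the highest of the 9 genes in every group. Its mean level was 302 ± 153 TPM in LIF2i, 363 ± 86.7 after withdrawal and 311 ± 61.0 with CK666 (SD, n = 3 throughout). Epcam, a cell adhesion protein of epithelia and pluripotent cells, was second, at 43.0 ± 23.9 TPM in LIF2i, 299.5 ± 60.2 after withdrawal and 288 ± 60.3 with CK666. Cdh1 and Epcam did not overlap in LIF2i but did in both groups without it. Zeb1 moved most in the order, being at rank 3 in LIF2i with 15.6 ± 10.2 TPM, at rank 7 after withdrawal with 1.25 ± 0.654 TPM, and at rank 5 with CK666, at 7.11 ± 5.03 TPM. Cdh3 was at 5.41 ± 2.02 TPM in LIF2i, below every Zeb1 value there, and at 46.2 ± 1.78 TPM after withdrawal and 51.1 ± 18.3 TPM with CK666. Without LIF2i, with or without CK666, Cdh3 was below Epcam and above the genes ranked after it, with no overlap. The other genes had group means from 0.251 TPM (Snai2 after withdrawal) to 9.32 TPM (Twist1 with CK666). Most neighbours among these lower genes overlapped.

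**Figure D1:**
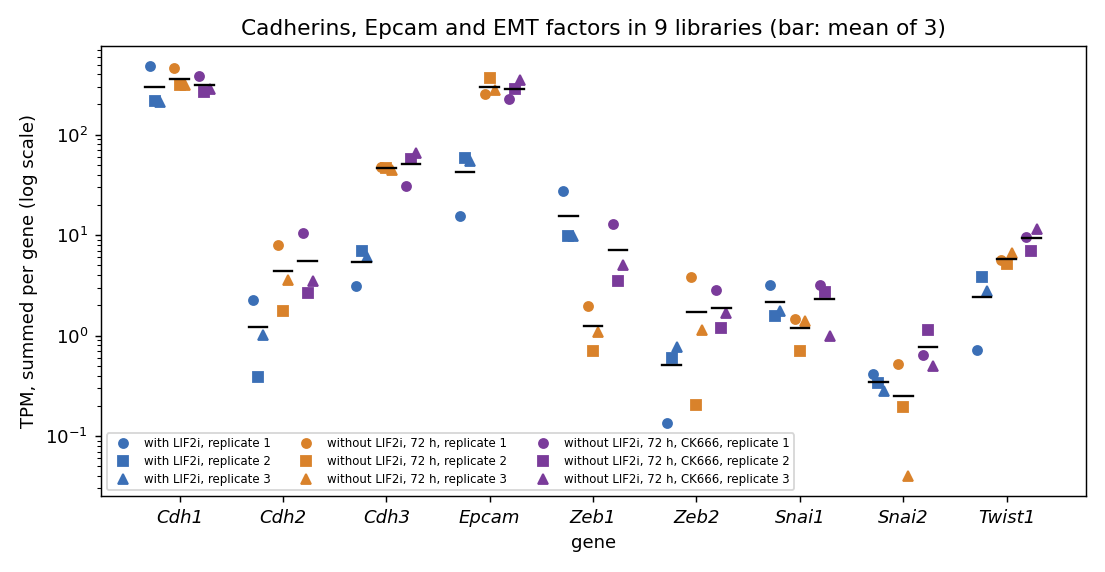
Levels of the 9 genes in TPM on a log axis, each point 1 library and each line a group mean, for LIF2i, 72 h withdrawal and 72 h withdrawal with CK666. Zeb1 is highest in LIF2i and lowest after withdrawal, whereas Cdh3 and Epcam are low in LIF2i and high in both groups without it.

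Withdrawal of LIF2i from control cells asks how these genes change as the cells leave self-renewal. Cdh3, Epcam and Cdh2 rose by 8.79-fold, 7.35-fold and 3.58-fold, Cdh1 rose slightly, and Zeb1 was 9.69-fold lower. Leaving Zeb1 out, 4 of the other 8 genes were called at an adjusted p under 0.05 with edgeR, all raised, in a comparison that called 40.7% of all tested genes, 21.1% raised and 19.7% lowered. The groups did not overlap in CPM for 5 of the 9 genes, Zeb1 among them, and for 40.7% of all tested genes. The median log2 fold change of the 9 was 0.53, beside 0.01 for all tested genes.

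Cdh1 is on chromosome 8 (GRCm38, chr8:106603351-106670246, plus strand). Its CPM was 1028, 707 and 654 in LIF2i and 1158, 974 and 984 after withdrawal, in replicates 1, 2 and 3. The groups overlapped because LIF2i replicate 1 was above 2 of the withdrawn libraries, although all 3 pairs rose. Its log2 fold change was 0.40 (edgeR SE 0.13, adjusted p = 0.034). It was called in 8 of 18 alternative fits, with adjusted p = 0.27 without the replicate block, 0.099 with the length offset, 0.0016 without replicate 1 and 0.053 without withdrawn replicate 1 alone. It also lost its call with any 1 other library or number of replicates 2 and 3 left out except CK666 replicate 3, with adjusted p of 0.06 to 0.29. In TPM the replicate 1 pair ran the other way, from 479 to 463.

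Cdh3, which encodes P-cadherin, is the neighbour of Cdh1 on the same strand (chr8:106510891-106557297). The LIF2i libraries held 7.81, 24.6 and 19.7 CPM and the withdrawn libraries 125, 148 and 139 CPM. The lowest withdrawn library was several times the highest one in LIF2i. Cdh3 rose by 3.14 on the log2 scale (edgeR SE 0.27, adjusted p = 4e-05), called in all 18 alternative fits.

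Cdh2 (chr18:16588877-16809246, minus strand) had 5.79, 1.51 and 2.85 CPM in LIF2i and 20.8, 5.29 and 10.4 CPM after withdrawal. Replicate 1 was highest in both groups, so the groups overlapped, while the log2 rises within the pairs were close to each other at 1.85, 1.8 and 1.87. The fitted log2 fold change was 1.84 (edgeR SE 0.23, adjusted p = 0.00027). It kept its call in 17 of 18 alternatives, the exception being the fit without the replicate block, where adjusted p was 0.077.

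Per length, Cdh2 stayed a small fraction of Cdh1. Cdh2 was 0.468, 0.182 and 0.473% of Cdh1 TPM in the LIF2i libraries, 1.72, 0.562 and 1.13% after withdrawal, and 2.75, 0.985 and 1.23% with CK666. The LIF2i and withdrawn libraries did not overlap. On the log2 scale the ratio was 1.59 higher after withdrawal than in LIF2i (SD of the 3 pair differences 0.31). A two-sided exact permutation test that ignored the pairing gave p = 0.1, the smallest that 3 against 3 allows. CK666 cells were 0.53 above withdrawn controls (SD 0.37), and those groups overlapped.

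**Figure D2:**
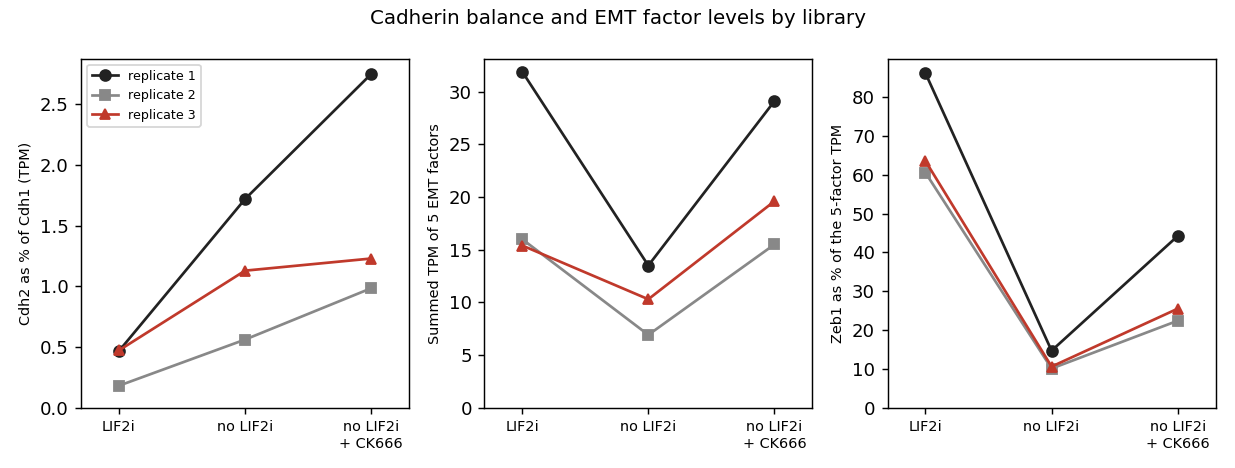
Cdh2 as a percentage of Cdh1, both in TPM, and Zeb1 as a percentage of the summed TPM of Zeb1, Zeb2, Snai1, Snai2 and Twist1, each point 1 library. The Cdh2 percentage stays below 2.75% in all libraries but 1, which is at that value, and the Zeb1 percentage runs from 86.1% in a LIF2i library to 10.1% in a withdrawn one.

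Epcam (chr17:87635979-87651129, plus strand) had 11.7, 73.2 and 63.1 CPM in LIF2i and 217, 401 and 307 CPM after withdrawal. All withdrawn libraries were above all LIF2i libraries. Epcam rose by 2.88 on the log2 scale (edgeR SE 0.37, adjusted p = 0.00053), called in all 18 alternatives, and it was 2.40 without replicate 1. The ZEB and SNAIL factors bind the E-box core CACCTG, so the bases just before the start of Epcam are shown beside those of Twist1. Epcam was the member with the clearest rise among the 4 with a promoter sequence. Most Epcam TPM was assigned to Epcam-204, whose annotated start lies 703 bases downstream of the gene start, so the window is the one before the gene start and not the one before that transcript. Both are from RefSeq on GRCm38.p6, plus strand, 250 bases ending at the base before the start (chr17:87635729-87635978 and chr12:33957421-33957670). Capitals mark CACCTG or its reverse complement CAGGTG.
Epcam: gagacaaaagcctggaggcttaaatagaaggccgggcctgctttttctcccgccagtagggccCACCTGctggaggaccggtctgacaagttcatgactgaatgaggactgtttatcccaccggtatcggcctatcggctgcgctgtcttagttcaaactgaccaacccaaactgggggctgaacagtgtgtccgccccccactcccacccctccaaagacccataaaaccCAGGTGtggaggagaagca
Twist1: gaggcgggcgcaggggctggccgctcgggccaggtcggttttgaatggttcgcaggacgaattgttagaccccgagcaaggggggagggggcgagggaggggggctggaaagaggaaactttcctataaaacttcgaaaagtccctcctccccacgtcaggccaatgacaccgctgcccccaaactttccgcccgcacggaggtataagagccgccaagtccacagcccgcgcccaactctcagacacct
The Epcam window held 2 matches, CACCTG from 187 to 182 and CAGGTG from 19 to 14 bases before the start, and the Twist1 window held 0. Among 32851 promoter windows of the same length, 17.2% held at least 1 match and 2.06% held 2 or more. These matches are letters in the sequence, and binding was not measured. Of the 9 genes, Epcam, Snai1, Twist1 and Zeb2 had an entry, and matches are given for Epcam and Twist1 only. Those of Snai1 and Zeb2 are not given, and Cdh1, Cdh2, Cdh3, Zeb1 and Snai2 were not analysed here for promoters.

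Zeb1 encodes a zinc-finger homeodomain repressor of Cdh1 (chr18:5591860-5775467, plus strand). Its CPM was 60.6, 21.3 and 29.9 in LIF2i and 6.56, 1.71 and 3.45 after withdrawal. Every LIF2i library was above every withdrawn one. Zeb1 had a log2 difference of -3.28 (SE 0.23). The withdrawn libraries are also those against which the rise of Zeb1 with CK666 was seen when the genes were chosen, so this difference is a description. The pairs gave -3.21, -3.63 and -3.12. Of the exonic bases of Zeb1, 1.93% are shared with Gm10125 on the opposite strand, and the sources used here do not state strand-specific quantification.

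Zeb2, its paralogue (chr2:44983632-45117395, minus strand), was near the limit of counting, with 6, 20 and 24 counts in LIF2i and 80, 10 and 21 after withdrawal. Replicate 1 after withdrawal was above every LIF2i library in CPM, and the other 2 withdrawn libraries lay within the LIF2i range. The log2 fold change of 0.53 (edgeR SE 0.78, adjusted p = 0.63) came from a rise of 3.71 in replicate 1 against falls of 1.01 and 0.36 in the other 2 pairs, and without replicate 1 it was -0.60. Of the Zeb2 exonic bases, 3.3% are shared with other genes, Zeb2os among them.

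Snai1 (chr2:167538195-167542814, plus strand), which encodes the zinc-finger repressor SNAIL, had 2.60, 1.83 and 1.88 CPM in LIF2i and 1.25, 0.726 and 1.46 CPM after withdrawal. The groups did not overlap, but the log2 difference of -0.85 (edgeR SE 0.52, adjusted p = 0.23) did not pass the test. It was -0.52 without withdrawn replicate 2 and -1.38 without withdrawn replicate 3. Its relative Snai2 (chr16:14705852-14709385, plus strand) encodes SLUG and had 9, 10 and 6 counts in LIF2i and 12, 5 and 1 after withdrawal, the last below 3 counts. These low counts gave a log2 difference of -0.67 (edgeR SE 0.79, adjusted p = 0.53), with overlapping groups, and from -1.67 without withdrawn replicate 1 to -0.17 without replicate 3.

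Twist1 encodes a basic helix-loop-helix factor (chr12:33957671-33959829, plus strand). It had 0.589, 4.44 and 3.03 CPM in LIF2i and 4.87, 5.39 and 6.96 CPM after withdrawal. All 3 pairs were higher without LIF2i, by 3.05, 0.28 and 1.20 on the log2 scale, and the groups did not overlap. The log2 difference of 1.24 (SE 0.50) had an edgeR adjusted p of 0.075 and ranged from 0.012 to 0.26 over the alternatives, 3 of which called it. The value itself ran from 0.68 without LIF2i replicate 1 to 1.99 without LIF2i replicate 2. Among the 5 factors, Zeb1 made up 86.1, 60.5 and 63.5% of the summed TPM of the 5 factors in LIF2i, and 14.7, 10.1 and 10.6% after withdrawal. The sum itself was 31.9, 16.0 and 15.4 TPM in LIF2i and 13.5, 6.92 and 10.3 TPM after withdrawal.

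**Figure D3:**
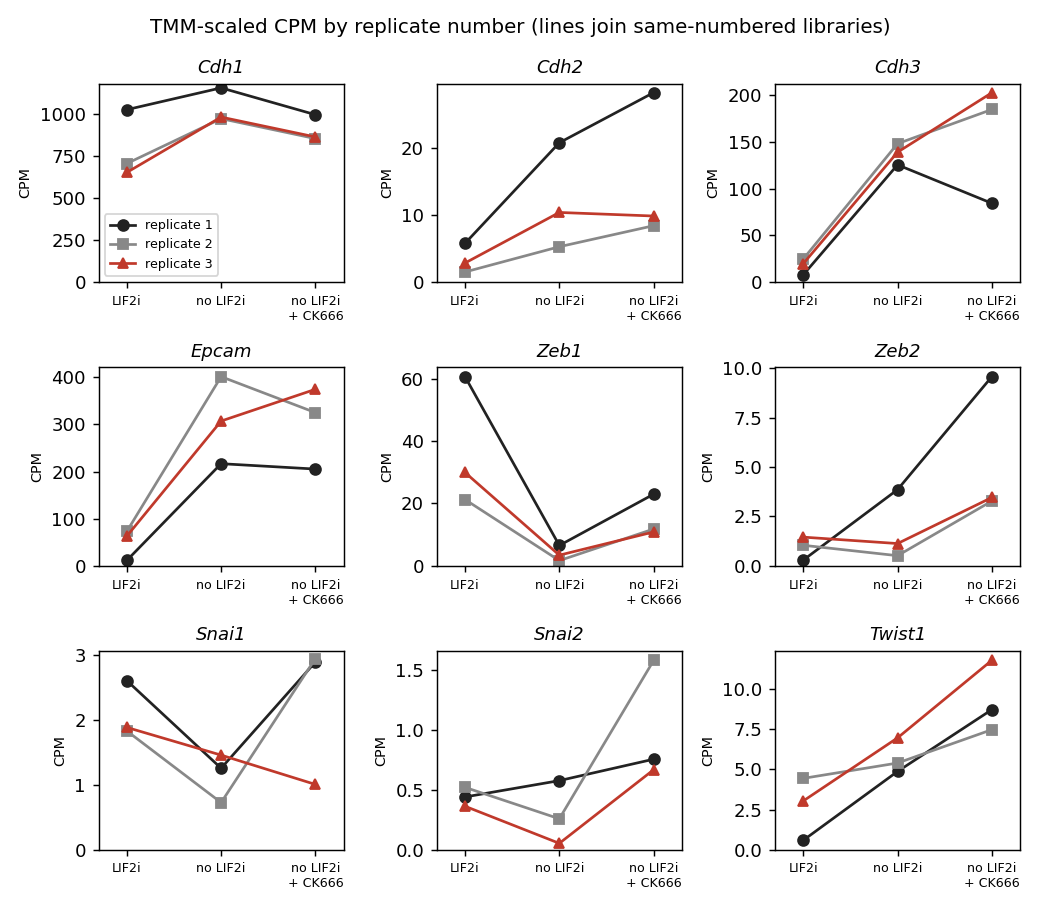
CPM of each gene by replicate number on a linear axis, with lines joining the 3 groups of the same replicate. From LIF2i to withdrawal all 3 Cdh2 lines rise, with replicate 1 above the others. The Zeb2 line of replicate 1 rises on withdrawal while those of replicates 2 and 3 do not.

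CK666 during withdrawal was compared with withdrawn control cells, to ask what blocking Arp2/3 does over the same 72 h. Zeb1 was higher with CK666 in all 3 pairs, by 4.15-fold in the fit, and Snai2 and Twist1 were also above the control libraries without overlap. The cadherins and Epcam were close to the controls. By edgeR's adjusted p the count of the 9 genes is 1, Zeb1, for which the set was chosen, in a comparison that called 2.05% of all tested genes, 1.15% raised and 0.894% lowered. The 3 genes without overlap stand beside 16.5% of all tested genes. Of these 3, Snai2 had 10 or more counts in every library only with CK666, so it passed the filter through the group where it is high. The set was chosen for the Zeb1 call, so nothing is read from these counts. Zeb1 kept its call in 12 of 18 alternatives, which describes the rise that chose the set and is no test of it. The count of the 9 was 2 without LIF2i replicate 1 and 3 without replicate 1, fits that called 11% and 12.3% of all tested genes. The median log2 fold change of the 9 genes was 0.72, beside 0.02 for all tested genes.

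Zeb1 had 23, 11.8 and 10.9 CPM with CK666, against 6.56, 1.71 and 3.45 CPM in the withdrawn controls. Every CK666 library was above every control library, and CK666 libraries 2 and 3 were below all 3 LIF2i libraries. The log2 fold change was 2.05 (SE 0.23), with 1.81, 2.79 and 1.66 in the 3 pairs and 1.72 to 2.44 over the 18 alternatives. Zeb1 made up 44.2, 22.4 and 25.5% of the summed factor TPM with CK666, and the sum was 29.1, 15.5 and 19.6 TPM.

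Zeb2 had 202, 58 and 62 counts with CK666, or 9.57, 3.28 and 3.46 CPM, beside 3.86, 0.519 and 1.13 CPM in the controls. All 3 pairs were higher, by 1.31, 2.66 and 1.61 on the log2 scale, and the groups overlapped. The log2 fold change was 1.69 (SE 0.70), 2.06 without replicate 1, 2.58 without withdrawn replicate 1 alone, and 0.51 when an offset for effective transcript length was used. In TPM the replicate 1 pair ran the other way, from 3.84 in the control to 2.86 with CK666. Of the 3.84 TPM, 58.1% was assigned to a single 550-base Zeb2 transcript, which was at 0 in the other 2 withdrawn and all 3 CK666 libraries.

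Snai2 had 0.758, 1.58 and 0.670 CPM with CK666 and 0.579, 0.259 and 0.0539 CPM in the controls, from 16, 28 and 12 counts against 12, 5 and 1. The log2 difference was 1.81 (SE 0.77), with 0.39, 2.61 and 3.63 in the pairs, the last against the control library with 1 count, and it was 2.80 without replicate 1 and 2.75 without withdrawn replicate 1 alone. Twist1 had 8.71, 7.47 and 11.8 CPM with CK666, all above the controls, and its log2 difference was 0.72 (SE 0.47), or 0.28 without CK666 replicate 1. Snai1 had 2.89, 2.94 and 1.00 CPM with CK666, and the third pair was lower while the other 2 were higher. The Snai1 log2 difference was 0.94 (SE 0.53), with 0.36 without replicate 2 and 1.6 without replicate 3.

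Among the adhesion genes, Cdh1 had 998, 856 and 865 CPM with CK666, lower than control in all 3 pairs by a small and even amount, -0.21, -0.19 and -0.19 on the log2 scale. The fitted difference was -0.20 (SE 0.13). Cdh2 had 28.3, 8.43 and 9.88 CPM with CK666, and its log2 difference was 0.35 (SE 0.21). Its pairs were 0.44, 0.67 and -0.08, so the third ran the other way, and the value was 0.21 without CK666 replicate 2, 0.55 without CK666 replicate 3 and 0.18 without replicate 2. Cdh3 and Epcam had log2 differences of 0.07 (SE 0.24) and -0.03 (SE 0.34), with pairs in both directions. The Cdh3 value was 0.46 without withdrawn replicate 1 and -0.17 without replicate 3. That of Epcam was 0.27 without withdrawn replicate 1 and -0.33 without CK666 replicate 1. The CK666 libraries held 84.2, 184 and 202 CPM of Cdh3 and 205, 325 and 374.5 CPM of Epcam, which overlapped the controls.

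**Figure D4:**
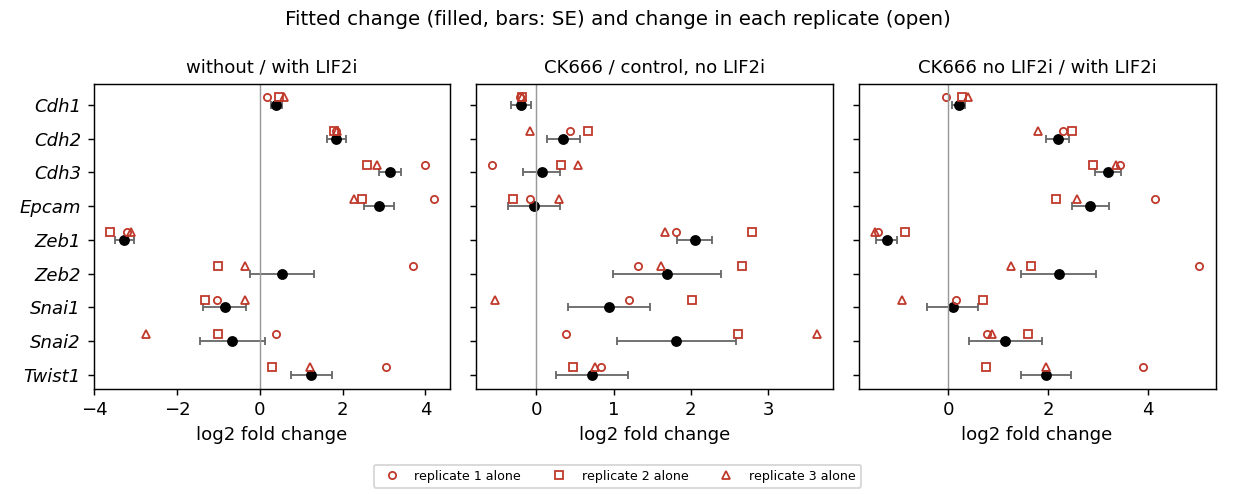
Log2 fold changes of the 9 genes in the 3 comparisons, with bars for the SE and small points for the 3 pairs. Zeb1 is far below 0 on withdrawal and above 0 with CK666, whereas Cdh3 and Epcam are above 0 against LIF2i and near 0 between CK666 and control.

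CK666 cells were also compared with the self-renewing cells. Cdh3, Epcam and Cdh2 were again high, 9.21-fold, 7.17-fold and 4.56-fold above LIF2i, and Twist1 and Zeb2 were also higher. Leaving Zeb1 out, 5 of the other 8 genes were called, all raised, in a comparison that called 36.9% of all tested genes, 19.8% raised and 17.1% lowered. The groups did not overlap for 6 of the 9 genes and for 37.3% of all tested genes. Snai2, among the 6, passed the filter through the CK666 group. This comparison shares the CK666 libraries with the one that chose the set and the LIF2i libraries with the withdrawal comparison, so its values are not independent of either. Zeb1 was lower than in LIF2i. Its log2 difference was -1.22 (SE 0.21), a 2.34-fold lower level, with -1.40, -0.85 and -1.46 in the pairs, and CK666 replicate 1 overlapped the LIF2i libraries.

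The log2 fold change against LIF2i was 3.20 for Cdh3 (edgeR SE 0.26, adjusted p = 4.5e-05), 2.84 for Epcam (SE 0.37, adjusted p = 0.00064) and 2.19 for Cdh2 (SE 0.23, adjusted p = 0.00012). These 3 were called in all 18 alternatives. Twist1 rose by 1.96 (edgeR SE 0.50, adjusted p = 0.014), with pairs at 3.89, 0.75 and 1.96, and was called in 13 alternatives. The Twist1 value was 1.33 without replicate 1 (adjusted p = 0.0099), and it lost its call without the replicate block (adjusted p = 0.055), without replicate 3 (0.12), and without CK666 replicate 1 (0.051), LIF2i replicate 3 (0.058) or CK666 replicate 3 (0.054). Zeb2 rose by 2.21 (edgeR SE 0.75, adjusted p = 0.045), with pairs at 5.02, 1.65 and 1.25, and was called in 8 alternatives. Its value was 1.46 without replicate 1 (adjusted p = 0.028) and 1.58 with the length offset (adjusted p = 0.23). The Zeb2 call was also lost with no filter, without the replicate block, without replicate 2 or 3, and without CK666 replicate 1, 2 or 3, LIF2i replicate 3 or withdrawn replicate 3, with adjusted p of 0.055 to 0.13. Cdh1 at 0.21 (SE 0.13, adjusted p = 0.24), Snai1 at 0.09 (SE 0.51, adjusted p = 0.91) and Snai2 at 1.14 (SE 0.73, adjusted p = 0.25) did not pass. Cdh1 was called without replicate 1, at 0.35 (edgeR adjusted p = 0.019), and without LIF2i replicate 1 alone, at 0.34 (adjusted p = 0.025).

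Transcript estimates, which split shared reads by a model and are given without a test, showed a shift within Cdh1. The short processed transcript Cdh1-202, of 789 bases, took 16.2, 8.07 and 7.19% of Cdh1 TPM in LIF2i, against 6.01, 3.52 and 1.09% after withdrawal and 6.40, 2.74 and 3.01% with CK666. The LIF2i libraries were above all others. Cdh1-201 took most of the rest, with group means of 89.0, 96.2 and 95.5%. Epcam came mainly from Epcam-204, at 85.5 ± 10.6, 92.1 ± 4.13 and 91.9 ± 5.16% in LIF2i, withdrawn and CK666 libraries. Zeb1-201 took 50.9 ± 15.4, 65.3 ± 31.5 and 48.3 ± 17.8% of Zeb1 TPM, with overlapping groups.

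Genes that work with the 9 were taken as lists, to be read beside the 21.1% of all tested genes raised and 19.7% lowered on withdrawal. The catenins, which link cadherins to actin, had 1 of 6 tested members raised on withdrawal and 0 lowered, with a median log2 fold change of 0.16. The raised one was Ctnnd1, p120-catenin, which binds the cadherin tail and keeps cadherins at the surface, at 0.50 (edgeR SE 0.12, adjusted p = 0.0077). It lost its call without the replicate block (adjusted p = 0.098), without replicate 2 (0.092) or 3 (0.094), and without withdrawn replicate 2 (0.052). Ctnnb1, β-catenin, had a log2 difference of 0.06 (edgeR adjusted p = 0.75), Jup, plakoglobin, -0.13 (adjusted p = 0.52), Ctnna1, α-catenin, -0.32 (adjusted p = 0.10), and Ctnnd2 0.26 (adjusted p = 0.52). Over the 18 alternatives Ctnna1 ran from -0.42 to -0.10 and Ctnnd2 from 0.03 to 0.61, and neither was called in any. Ctnna2, which had 0, 10 and 5 counts in LIF2i, had a log2 difference of 2.45 (edgeR adjusted p = 0.061), from 1.31 without replicate 1 to 3.94 without replicate 2. It was called in 4 of 18 alternatives, DESeq2 (adjusted p = 0.009), voom (0.043), without LIF2i replicate 2 (0.017) and without replicate 2 (0.03), and was 1.59 without LIF2i replicate 1 alone. With CK666, 0 of 6 catenins were called against withdrawn controls by edgeR, DESeq2 or voom, and 0 had an unadjusted p under 0.05.

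Of 18 cadherins outside the 9, 12 did not pass the filter on low counts. Of the 6 tested, 5 were raised and 1 lowered on withdrawal, where 40.7% of all tested genes were called. The count is no evidence about the list, since 3 of the 5 raised genes had under 10 counts in a LIF2i library, and a gene that passed the filter through other groups alone could be called in 1 direction only. Cdh9 went from 0.168 ± 0.146 to 6.15 ± 1.66 CPM and Cdh10 from 0.130 ± 0.114 to 5.35 ± 2.82 CPM, each with 0 counts in a LIF2i library. The lowered one was Cdh22, at a log2 fold change of -3.15 (edgeR SE 0.56, adjusted p = 0.002), with 7 counts in withdrawn replicate 1. Between CK666 and control edgeR called 0 of the 6, although 4 had an unadjusted edgeR p under 0.05, and DESeq2 called 1 and voom 0. Over all genes in that comparison 19.7% had an unadjusted edgeR p under 0.05, and DESeq2 called 8.44% and voom 3.78% of the genes that each tested.

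Of 20 tested genes on the epithelial list, 17 were raised on withdrawal, 1 was lowered and 2 did not pass, with a median log2 fold change of 1.85, beside 21.1% of all tested genes raised and 19.7% lowered. Of the 17, 3 had under 10 counts in a LIF2i library. Esrp1, an epithelial splicing regulator, rose by 6.92 (edgeR SE 0.25, adjusted p = 1.1e-06), from 0.948 ± 0.499 to 114 ± 39.2 CPM. Cldn6, a tight junction claudin, rose by 5.14 (SE 0.48, adjusted p = 0.00016). Grhl2, an activator of epithelial junction genes, rose by 4.74 (SE 0.68, adjusted p = 0.0012), with 1 count in LIF2i replicate 1. Among 14 tested mesenchymal genes 7 were raised, 4 lowered and 3 did not pass, beside the same 21.1% and 19.7%, and 3 of the 7 raised genes had under 10 counts in a LIF2i library. Fn1, fibronectin, fell from 2546 ± 182 to 277 ± 9.03 CPM, a log2 fold change of -3.20 (edgeR SE 0.13, adjusted p = 1.4e-06). Mmp2, a matrix metalloprotease, rose by 2.41 (SE 0.31, adjusted p = 0.00042), and Acta2, smooth muscle actin, rose by 5.95 (SE 1.38, adjusted p = 0.013), from withdrawn libraries at 1.74, 62.2 and 29.3 CPM. Acta2 was called in 12 of 18 alternatives, with a log2 fold change of 3.94 to 7.61 and an adjusted p up to 0.26, and lost its call with no filter, without replicate 2 or 3, and without LIF2i replicate 2 or 3 or withdrawn replicate 2. Grhl2 lost its call in 1 alternative, without replicate 2 (adjusted p = 0.062).

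**Figure D5:**
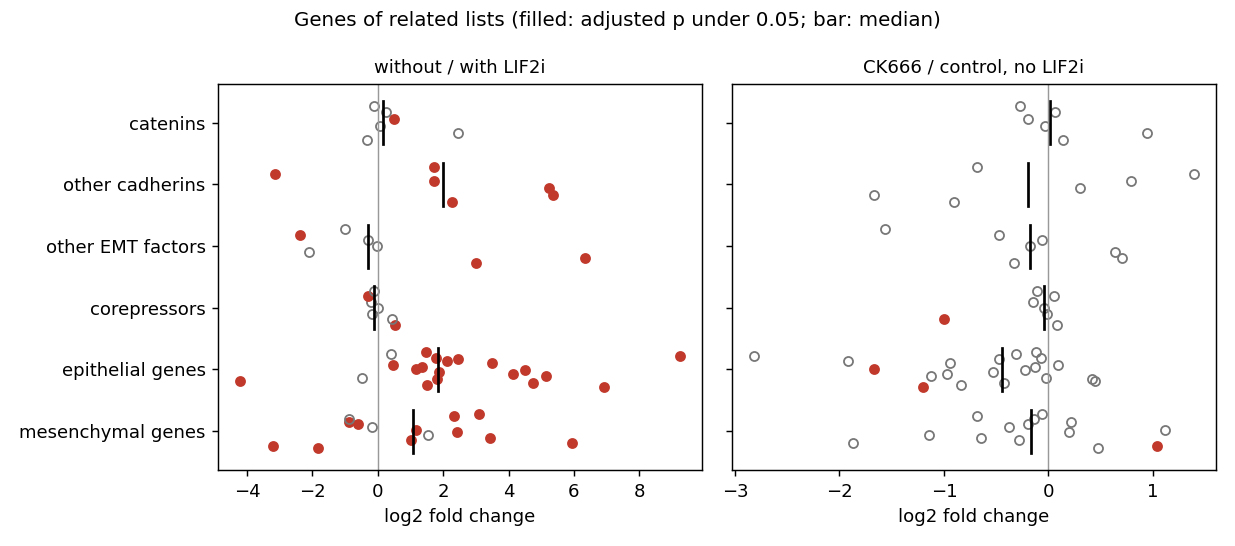
Log2 fold changes of the tested genes of each list on withdrawal and with CK666, each point 1 gene and each bar the list median. Most epithelial genes lie above 0 on withdrawal, where 17 of 20 were raised, and the list medians lie between -0.45 and 0.02 between CK666 and control.

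Other EMT factors on the list had 2 of 7 tested genes raised and 1 lowered on withdrawal, a share close to the 40.7% of all tested genes that were called. Both raised genes had under 10 counts in a LIF2i library. Snai3, a SNAIL-family gene, rose by 2.99 (edgeR SE 0.53, adjusted p = 0.0019), and Klf8, a Krüppel-like factor, fell by 2.38 (SE 0.31, adjusted p = 0.00037). Of 7 corepressor genes 1 was raised and 1 lowered, a smaller share than that. Ctbp1, a corepressor that ZEB proteins recruit, rose by 0.53 (edgeR SE 0.11, adjusted p = 0.004; 0.069 without replicate 2), and Hdac2, a histone deacetylase, fell by 0.31 (SE 0.11, adjusted p = 0.047), a call that held in 5 of 18 alternatives.

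Between CK666 and withdrawn controls, 4 genes of these lists were called. Fn1 was higher, at 574 ± 57.2 against 277 ± 9.03 CPM, a log2 difference of 1.04 (edgeR SE 0.12, adjusted p = 0.011). Esrp1 was lower by a log2 difference of -1.20 (SE 0.18, adjusted p = 0.026), as were Krt19, an epithelial keratin, at -1.67 (SE 0.29, adjusted p = 0.030), and the corepressor Ctbp2, at -1.0 (SE 0.19, adjusted p = 0.036). Krt19 and Ctbp2 were singled out after their values were seen. All 4 lost their call without the replicate block, where adjusted p was 0.27, 0.48, 0.41 and 0.41 in that order. They were called in 12, 11, 10 and 10 of 18 alternatives. All 4 also lost their call without replicate 2 or 3 and without withdrawn replicate 2 or 3 or CK666 replicate 2, as did Esrp1 without withdrawn replicate 1, Krt19 and Ctbp2 without CK666 replicate 3, Ctbp2 without LIF2i replicate 3, and Krt19 with the length offset. The lists gave 1 raised gene of 14 mesenchymal genes and 2 lowered genes of 20 epithelial ones, beside 1.15 and 0.894% of all tested genes raised and lowered. DESeq2 called 6 epithelial genes and voom 3, and 9 had an unadjusted edgeR p under 0.05, with a list median of -0.45. On the mesenchymal list DESeq2 called 2 and voom 1, and 4 had an unadjusted edgeR p under 0.05. Over all genes the shares were 8.44% with DESeq2, 3.78% with voom and 19.7% at an unadjusted edgeR p under 0.05.

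Markers of other cell types were low next to the stem cell markers, and the summed levels of the fibroblast, primitive endoderm and trophectoderm lists were higher without LIF2i, with no overlap. The 7 fibroblast markers summed to 4.77 to 7.32 TPM in LIF2i, 24.5 to 31.2 TPM after withdrawal and 14.6 to 24.4 TPM with CK666, most of it from Thy1, and Lum was under 3 counts in every library. Of the 5 tested, 4 were raised on withdrawal, Thy1, Col1a1, Col1a2 and Dcn, beside 21.1% of all tested genes. Among these 4, 2 had under 10 counts in a LIF2i library. The 7 primitive endoderm markers summed to 5.38 to 9.07, 10 to 31.1 and 12.5 to 24.0 TPM. Of the 6 tested, 1 was raised on withdrawal, Dab2, from a mean of 2.41 to 12.5 TPM, while Gata4 had 3.35 and 3.22 TPM and Gata6 0.446 and 0.460 TPM. The 7 streak and early mesoderm markers in the files summed to 5.13 to 10.7, 5.92 to 10.5 and 2.89 to 5.10 TPM, with Msgn1 under 3 counts in every library. These sums overlapped between LIF2i and withdrawn libraries, and CK666 libraries were below both. The largest part was Eomes, at means of 4.85, 4.79 and 1.89 TPM. Between CK666 and withdrawn controls edgeR called 0 of the 4 tested markers, DESeq2 1 and voom 0. Over all genes those shares were 2.05, 8.44 and 3.78%. Against LIF2i, edgeR called 2 of the 4 lowered and 1 raised, beside 17.1 and 19.8% of all tested genes. The neural crest list summed to 3.52 to 9.63, 7.62 to 12.9 and 4.52 to 11.9 TPM with overlapping groups. Its 3 tested markers moved in both directions on withdrawal. Sox10 and Foxd3 were raised, with log2 fold changes of 3.92 and 1.34, and Tfap2a was lowered, at -2.16, where 21.1% and 19.7% of all tested genes were raised and lowered. Sox10 and Tfap2a had under 10 counts in a library of the lower group. The trophectoderm list summed to 0.739 to 1.37, 2.81 to 5.64 and 3.6 to 6.01 TPM. The part of these cells in the levels of Cdh2, Zeb1 and Twist1 was not tested.

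The protein-coding genes most like Zeb1 over the 9 libraries, by Pearson correlation of log2 CPM among 9496 genes, were Slc10a7 (r = 0.972), Csgalnact2 (r = 0.971) and Eif2ak4 (r = 0.971). For Cdh1 they were Trim24 (0.978), Serp1 (0.968) and Fmnl3 (0.965), and for Cdh2 Mest (0.987), Cmss1 (0.977) and Sfmbt1 (0.974). The libraries share groups and replicate numbers, so these correlations only describe likeness.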

How the data were processed

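RNA of 9 libraries (3 groups of 3) was poly-A selected and sequenced. The authors quantified transcripts with kallisto and deposited estimated counts, TPM and effective lengths per transcript. Per the submitters' processing notes, FastQC, cutadapt 1.8.1, kallisto and sleuth were used, and the builds mm10 and GRCh38 are named. The deposited TPM values are normalized to library and transcript length, and the deposited effective lengths are in bases.

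Of 119414 transcripts, 116640 (97.7%) matched GENCODE M21; the 2774 others held 0.895 to 1.08% of counts. Estimated counts were summed per gene and rounded. edgeR 4.0.16 (R 4.3.3; TMM, robust quasi-likelihood test, all 9 libraries, replicate number as a block, 4 residual degrees of freedom) tested each gene that passed filterByExpr, with Benjamini-Hochberg adjustment over all genes and a threshold of 0.05. CPM values use the TMM library sizes, and errors are SDs. The design text calls the replicates paired, and the deviations of same-numbered libraries from their group means correlated in all 9 pairs (r 0.30 to 0.65, median 0.41) against a median of -0.37 between numbers. Nothing further says how separate the cultures were, so p-values measure the spread between these libraries.

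The 18 alternatives were no block, DESeq2 size factors, no filter, DESeq2 1.42.0, limma 3.58.1 voom, an effective length offset, and leaving out each library or replicate number. The fit was tested on simulated data. The 9 genes, the lists and the markers were chosen with earlier results of these data known. From each list were named the called genes with the largest fold change on withdrawal, up to 3 whose log2 CPM averaged 1 or more, and all catenins; Krt19 and Ctbp2 were added. For likeness, the average log2 CPM had to reach 3.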

Additional observations from a re-analysis of the deposited data

How the results depend on the processing

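Of the 936 single-gene values under an alternative, 86 tested values lost a call, 11 gained one, 15 given without a test moved beyond the spread of the pairs, and 18 changed sign; the cause was not tested. Of the 18, 8 were values near 0 between CK666 and control, 5 of Cdh3 and 3 of Epcam. The other 10 were, on withdrawal, Zeb2 (-0.41 without LIF2i replicate 1, -0.12 without withdrawn replicate 1, -0.60 without replicate 1; up to 1.25 without replicate 2), Ctnnb1 (-0.02 without withdrawn replicate 2, up to 0.19 with others left out) and Jup (0.09, 0.05 and 0.13 without LIF2i, withdrawn or every replicate 1, down to -0.26 with others left out). Between CK666 and LIF2i Snai1 stood at -0.01, -0.38 and -0.30 without LIF2i, CK666 or every replicate 2, and up to 0.55 with others left out.

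With Zeb1 counted, 5 of the 9 genes were called on withdrawal, 1 between CK666 and control and 6 between CK666 and LIF2i. Without the replicate block these were 3, 0 and 3. With libraries left out, the counts were 4 to 5, 0 to 3 and 4 to 7. The count between CK666 and control was 0 without withdrawn or CK666 replicate 2, withdrawn replicate 3, or all of replicates 2 or 3, 2 without LIF2i replicate 1 and 3 without replicate 1. Over all genes, that comparison called 300 genes, 0 without the block (1251 at an unadjusted p under 0.05), 1140 with DESeq2, 553 with voom, 148 with the length offset, 565 with no filter, 1811 without replicate 1 and 0 without replicate 3 (1360 unadjusted). Withdrawal called 5967 genes and 3509 without the block, and CK666 against LIF2i 5408 and 2966. The replicate numbers are the pairing, and calls lost without the block are those of a fit with a larger spread (biological coefficient of variation 0.356 against 0.211).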

Other observations

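A pair of Grainyhead-like factors on the epithelial list, singled out after their values were seen, moved in opposite directions on withdrawal. Grhl2 went from 1.51 ± 1.27 to 38.5 ± 1.99 CPM, while Grhl3 went from 63.7 ± 12.3 to 3.43 ± 0.729 CPM (log2 fold change -4.21, edgeR SE 0.25, adjusted p = 5.6e-06). With CK666 they were at 28.2 ± 7.52 and 4.89 ± 2.56 CPM. Vim, which encodes the intermediate filament vimentin, also singled out after its values were seen, fell on withdrawal like Fn1, from 185 ± 60.9 to 50.8 ± 9.13 CPM (log2 fold change -1.83, SE 0.13, edgeR adjusted p = 1.3e-05), and stood at 72.2 ± 20.5 CPM with CK666.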
